A study of Mus musculus with 16 samples.

Results

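The genes described here encode the subunits of the proteasome, its activators, its inhibitor and the chaperones that assemble its core, and they were taken as every gene of the expression table whose symbol consists of Psma, Psmb, Psmc, Psmd, Psme, Psmf or Psmg and a number. There were 44 such genes among 12321. Of these, 15 form the core particle (7 Psma and 8 Psmb genes), 20 the regulatory particle (6 Psmc and 14 Psmd genes), 4 are activators (Psme1 to Psme4), and 5 are the inhibitor Psmf1 and the assembly factors Psmg1 to Psmg4. Psma8, Psmb8, Psmb9 and Psmb11 were not analysed here.

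The proteasome is the protease that degrades ubiquitin-tagged proteins in the cytosol and nucleus. Its core is a barrel of stacked rings, in which the Psma proteins form the outer rings that gate entry and the Psmb proteins the inner rings, where Psmb5, Psmb6 and Psmb7 carry the active sites. Interferons induce alternative active subunits, of which Psmb10 takes the place of Psmb7, and the activator subunits Psme1 and Psme2, and these forms are best known for trimming peptides for MHC class I presentation. The regulatory particle caps the core. Its Psmc ATPases unfold substrates, and its Psmd proteins bind ubiquitin, remove it or hold the particle together.

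RNA was sequenced from LKR10, a mouse lung adenocarcinoma cell line, in 16 libraries that fall into 4 groups of 4. Cells carried a pLKO lentiviral short hairpin RNA against Ankrd35 (shAnkrd35) or against GFP as the control (shGFP), and RNA was taken 96 h after a selection of 48 h with 4 µg/ml puromycin. The groups were 3D shAnkrd35 and 3D shGFP, grown in 0.5% methylcellulose in complete DMEM, and 2D shAnkrd35 and 2D shGFP, grown as a monolayer in DMEM with serum. All 4 groups are thus the same line, infected and selected, and how many hairpin sequences each target had is not given in the sources used here. The comparisons ask how shAnkrd35 differed from shGFP in each growth type, how 3D differed from 2D with each hairpin, and whether the hairpin difference depended on growth type. Whether the replicates came from separate cultures is not in the labels, so a p-value reflects the spread of these libraries alone, and that spread may be technical.

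Libraries held 13.82 to 28.72 M reads assigned to genes. Ankrd35 itself had 9 to 12 reads per library in 3D shAnkrd35, against 14 to 17 in 3D shGFP, and 1 to 7 reads in 2D shAnkrd35, against 2 to 7 in 2D shGFP. In CPM (the read count scaled to library size) its levels overlapped between the hairpins in both growth types, so the directions below rest on the hairpin labels. Of 8 epithelial markers 5 were measured and summed to 5261 to 8553 CPM, while of 8 lung epithelial markers only Lyz2 was measured, at 0.21 to 8.84 CPM, and Nkx2-1 and Sftpc were not analysed here. Of 10 macrophage markers 2 were measured, summing to 3.44 to 8.58 CPM, and of 9 fibroblast markers 6, summing to 14.6 to 50.4 CPM. Of 6 endothelial markers 1 was measured, at 0.99 to 5.66 CPM, and of 9 lymphocyte and 5 erythroid markers none. The slope of expression on the GC content of transcripts was lower in every 3D library than in every 2D library, while the hairpins overlapped within each growth type. Per 10% GC it was -0.27 to -0.12 on the log2 scale in 3D shAnkrd35, -0.30 to -0.23 in 3D shGFP, 0.26 to 0.53 in 2D shAnkrd35 and -0.10 to 0.29 in 2D shGFP. Differences are therefore also given after removal of each library's length and GC trend where that changes the call of a gene described by name. In bulk RNA, a change in the number of cells of a kind and a change in RNA per cell cannot be told apart.

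Levels between genes are compared as CPM per kilobase of the principal annotated transcript (CPM per kb). Over all libraries, the most abundant core gene was Psmb6 at 152 CPM per kb and the least abundant was Psmb10 at 13.4. Among the ATPases the mean level ran between 94.0 CPM per kb for Psmc3 and 26.7 for Psmc6, and among the Psmd genes between 124 for Psmd2, a scaffold subunit, and 10.4 for Psmd9, an assembly chaperone of the ATPase ring. All 44 genes passed the filter on low values. Psmg3, the least abundant named gene, had 48 to 139 reads per library, and Psmd2 had 5236 to 12270.

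The summed level of the beta ring (Psmb genes) was 569 to 651 CPM in 3D shAnkrd35, 605 to 634 in 3D shGFP, 707 to 858 in 2D shAnkrd35 and 623 to 695 in 2D shGFP. The lowest 2D shAnkrd35 library, replicate 1, lay above all 2D shGFP libraries. The alpha ring (Psma genes) summed to 628 to 651 CPM in 3D shAnkrd35, 671 to 719 in 3D shGFP, 616 to 712 in 2D shAnkrd35 and 610 to 621 in 2D shGFP. The beta ring sums of the hairpins were apart in 2D and overlapped in 3D, and those of the alpha ring overlapped in 2D and were apart in 3D. The ATPases summed to 655 to 694 CPM in 3D shAnkrd35, 636 to 665 in 3D shGFP, 735 to 776 in 2D shAnkrd35 and 656 to 664 in 2D shGFP. Together the 44 genes took 0.408% ± 0.0057 of reads in 3D shAnkrd35, 0.421% ± 0.0062 in 3D shGFP, 0.427% ± 0.019 in 2D shAnkrd35, with 0.374% ± 0.0085 in 2D shGFP (SD, n = 4 each).

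**Figure D1:**
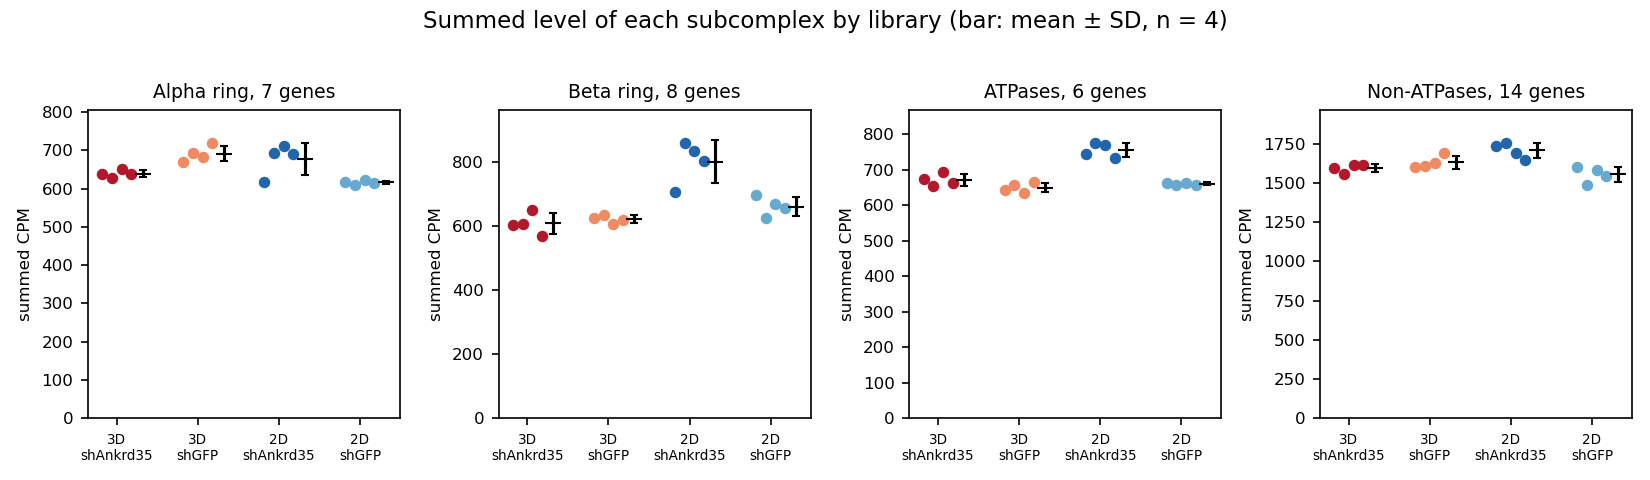
Summed CPM of the alpha ring (7 genes), beta ring (8), ATPases (6) and non-ATPases (14) in each library, by group, with bars for the mean ± SD (n = 4). In the ATPases the 4 libraries of 2D shAnkrd35 sit at 735 to 776, above every other library.

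In 2D, most proteasome genes were higher in cells with shAnkrd35. Of the 44 genes, 26 rose and 4 fell (limma, adjusted p under 0.05), against 29.0% of all genes tested that rose and 28.8% that fell. The median log2 difference of the 44 was 0.20, against 0.01 over all 12320 genes. In 21 of the 44 every shAnkrd35 library was above every shGFP library, and in 2 below, against 22.3% and 17.5% of all genes. After removal of the GC and length trend, 22 rose and 7 fell, of which 21 and 3 were among those called before, and the median was 0.14. Without both 2D libraries numbered 1, of which that of shAnkrd35 stands apart in several genes below, 28 rose and 5 fell. Of the 5 measured epithelial markers 3 rose in the same comparison, the keratins Krt8, Krt18 and Krt19, while Cdh1, which encodes E-cadherin, fell by 0.20 ± 0.04 and Epcam did not pass. Their summed level, carried by Krt8 and Krt18, was 7026 to 8553 CPM in 2D shAnkrd35, against 5261 to 5760 CPM in 2D shGFP. Of the 6 fibroblast markers 3 fell and none rose, also at an unadjusted p under 0.05, and they summed to 21.2 to 22.3 CPM in 2D shAnkrd35, against 33.6 to 37.8 CPM in 2D shGFP. The part of either in the proteasome differences was not tested.

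The core gave 11 of these rises and 2 of the falls among its 15 genes. In the alpha ring 4 of 7 genes rose (Psma1, Psma2, Psma3 and Psma7) and 2 fell. Psma4 was measured at 65.6, 70.4, 77.8 and 75.7 CPM in 2D shAnkrd35, against 84.0, 88.1, 83.2 and 83.4 CPM in 2D shGFP, a log2 difference of -0.23 ± 0.05 (SE; adjusted p = 0.000944). Psma5 was at 46.9, 64.8, 66.1 and 61.8 CPM in 2D shAnkrd35, against 72.9, 70.7, 73.2 and 70.7 CPM in 2D shGFP, a difference of -0.28 ± 0.08 (adjusted p = 0.00838). The groups did not overlap for either gene, and both run against the other alpha genes that were called. In the beta ring 7 of 8 genes rose and none fell, also at an unadjusted p under 0.05, with a median of 0.33. After trend removal 4 of the 8 rose and the median was 0.17. The median over the 15 core genes was 0.20, and 0.32 without both 2D libraries numbered 1.

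The promoters of the catalytic subunits and activators that were called in 2D are shown with 2 motifs marked, since regulators of proteasome genes bind such elements. The sequences are RefSeq promoters on GRCm38.p6, 250 bases before and 50 after the start, printed 5′ to 3′ on the gene's strand. Capitals mark TGACNNNGC, the core of the antioxidant response element to which NRF1 and related factors bind, in Psmb5, Psmb6 and Psme4, and in Psme1 the interferon response element, which is GAAA, any 2 bases and GAAA again (read on the other strand in Psme1), each searched on both strands. Psmb10, Psme2 and Psme3 hold neither in this window.
Psmb5, chr14:54617946-54618245, minus strand: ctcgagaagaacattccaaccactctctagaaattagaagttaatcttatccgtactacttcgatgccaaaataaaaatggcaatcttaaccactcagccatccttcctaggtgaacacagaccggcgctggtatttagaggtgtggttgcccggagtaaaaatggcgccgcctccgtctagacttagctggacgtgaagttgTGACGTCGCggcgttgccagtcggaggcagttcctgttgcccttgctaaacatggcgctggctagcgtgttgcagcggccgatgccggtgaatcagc
Psmb6, chr11:70525107-70525406, plus strand: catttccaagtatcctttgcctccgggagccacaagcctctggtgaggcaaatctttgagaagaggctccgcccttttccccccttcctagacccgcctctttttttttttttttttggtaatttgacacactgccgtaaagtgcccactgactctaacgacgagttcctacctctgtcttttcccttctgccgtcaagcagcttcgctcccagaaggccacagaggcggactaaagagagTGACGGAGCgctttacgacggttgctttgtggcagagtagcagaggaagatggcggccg
Psmb10, chr8:105938343-105938642, minus strand: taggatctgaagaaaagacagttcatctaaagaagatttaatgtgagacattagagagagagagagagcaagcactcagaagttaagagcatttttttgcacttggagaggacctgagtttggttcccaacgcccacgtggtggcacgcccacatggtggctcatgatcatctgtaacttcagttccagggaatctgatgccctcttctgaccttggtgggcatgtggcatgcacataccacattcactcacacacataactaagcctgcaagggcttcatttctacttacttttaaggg
Psme1, chr14:55578244-55578543, plus strand: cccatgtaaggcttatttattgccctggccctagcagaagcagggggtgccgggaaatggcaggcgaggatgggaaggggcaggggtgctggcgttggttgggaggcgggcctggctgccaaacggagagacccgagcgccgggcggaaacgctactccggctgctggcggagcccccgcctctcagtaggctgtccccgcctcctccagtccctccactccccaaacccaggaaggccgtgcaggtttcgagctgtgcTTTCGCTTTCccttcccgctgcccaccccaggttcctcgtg
Psme2, chr14:55590972-55591271, minus strand: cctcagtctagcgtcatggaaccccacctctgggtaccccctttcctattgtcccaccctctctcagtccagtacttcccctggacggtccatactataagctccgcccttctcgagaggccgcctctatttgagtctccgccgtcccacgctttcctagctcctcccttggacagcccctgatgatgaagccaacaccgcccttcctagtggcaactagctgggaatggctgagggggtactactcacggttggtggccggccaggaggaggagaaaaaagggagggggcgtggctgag
Psme3, chr11:101315963-101316262, plus strand: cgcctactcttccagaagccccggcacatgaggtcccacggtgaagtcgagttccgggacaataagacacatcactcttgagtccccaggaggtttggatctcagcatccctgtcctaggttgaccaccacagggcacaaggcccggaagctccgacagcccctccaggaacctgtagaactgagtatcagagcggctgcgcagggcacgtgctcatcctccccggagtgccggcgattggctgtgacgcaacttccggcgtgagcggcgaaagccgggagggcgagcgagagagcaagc
Psme4, chr11:30771525-30771824, plus strand: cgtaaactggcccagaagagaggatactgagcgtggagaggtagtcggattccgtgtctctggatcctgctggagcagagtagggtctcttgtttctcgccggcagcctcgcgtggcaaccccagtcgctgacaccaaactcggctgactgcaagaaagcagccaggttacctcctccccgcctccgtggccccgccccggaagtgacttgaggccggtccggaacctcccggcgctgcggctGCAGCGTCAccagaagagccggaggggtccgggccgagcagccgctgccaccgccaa
Of the 44 genes, 37 had a promoter in the table. TGACNNNGC was found in 6 of the 37 (16.2%, against 12.4% of 32851 promoters): Psmb5, Psmb6, Psmc6, Psmd9, Psmd12 and Psme4. The interferon response element was found in 5 (13.5%, against 3.44% of all): Psmb3, Psmd4, Psmd9, Psme1 and Psmg4. CCAAT, the element bound by NF-Y, was found in 12 (32.4%, against 37.4% of all). Members are counted by gene, with a match in any of its promoters, while the shares of all are by promoter. A match is a description of these letters and not a site.

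Psmb10, the interferon-inducible subunit, had the largest rise in 2D. The gene (ENSMUSG00000031897.9) lies at chr8:105935735-105938444 on mm10 in 6 exon blocks. It was measured at 22.4, 21.8, 21.4 and 21.7 CPM in 3D shAnkrd35, against 17.4, 19.6, 18.2 and 16.6 in 3D shGFP, and at 16.4, 22.5, 18.6 and 19.6 in 2D shAnkrd35, against 11.8, 12.0, 10.8 and 11.3 in 2D shGFP. The 2D shGFP libraries were the 4 lowest, and the hairpins did not overlap in either growth type. The log2 difference in 2D was 0.74 ± 0.08 (adjusted p = 1.43e-06), a fold of 1.67, and 0.45 after trend removal (adjusted p = 4.05e-05). Psmb7, the constitutive subunit that Psmb10 replaces, was measured at 46.4, 49.7, 56.8 and 45.9 CPM in 3D shAnkrd35, against 53.7, 55.1, 52.4 and 53.6 in 3D shGFP, and at 51.6, 57.2, 55.3 and 53.7 in 2D shAnkrd35, against 58.5, 51.4, 60.2 and 50.9 in 2D shGFP. Its groups overlapped in 2D, with a log2 difference of -0.02 ± 0.07 (adjusted p = 0.833). After trend removal that difference was 0.25 (adjusted p = 0.0983). Psmb7 was then lower in 3D than in 2D with shGFP (-0.47, adjusted p = 0.00321) and with shAnkrd35 (-0.72, adjusted p = 8.85e-05). Neither had passed before the removal. Set against Psmb7 per kilobase, Psmb10 stood at 39.2% ± 4.2 in 3D shAnkrd35, 29.6% ± 1.9 in 3D shGFP, 31.3% ± 3.0 in 2D shAnkrd35, with 18.5% ± 2.1 in 2D shGFP (SD, n = 4 each). These ratios were not corrected for the GC trend, and the longest annotated transcripts hold 56.5% GC for Psmb10 and 40.8% for Psmb7. The trend removal used the GC of the longest transcript. Levels per kilobase use the length of the principal transcript, which can differ from the longest.

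The other constitutive active subunits rose in 2D, and their differences depended on the GC trend. Psmb5, the chymotrypsin-like subunit, was measured at 32.5, 33.7, 35.0 and 25.8 CPM in 3D shAnkrd35, against 29.1, 27.2, 25.4 and 26.0 in 3D shGFP, and at 35.8, 54.3, 52.0 and 51.7 in 2D shAnkrd35, against 36.1, 33.4, 33.3 and 31.2 in 2D shGFP. Replicate 1 of 2D shAnkrd35 lay within the range of 2D shGFP, and the other 3 lay above it. The log2 difference was 0.51 ± 0.12 (adjusted p = 0.00144) and 0.69 without both 2D libraries numbered 1, and it was 0.14 after trend removal, where it no longer passed (adjusted p = 0.0648). Psmb6, the caspase-like subunit, was at 108, 108, 121 and 99.4 CPM in 3D shAnkrd35, against 103, 98.5, 94.7 and 95.2 in 3D shGFP, and at 149, 159, 154 and 152 in 2D shAnkrd35, against 132, 115, 129.6 and 124 in 2D shGFP. The hairpins overlapped in 3D and not in 2D, with a difference in 2D of 0.30 ± 0.06 (adjusted p = 0.000314) that was 0.06 after trend removal (adjusted p = 0.283).

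**Figure D2:**
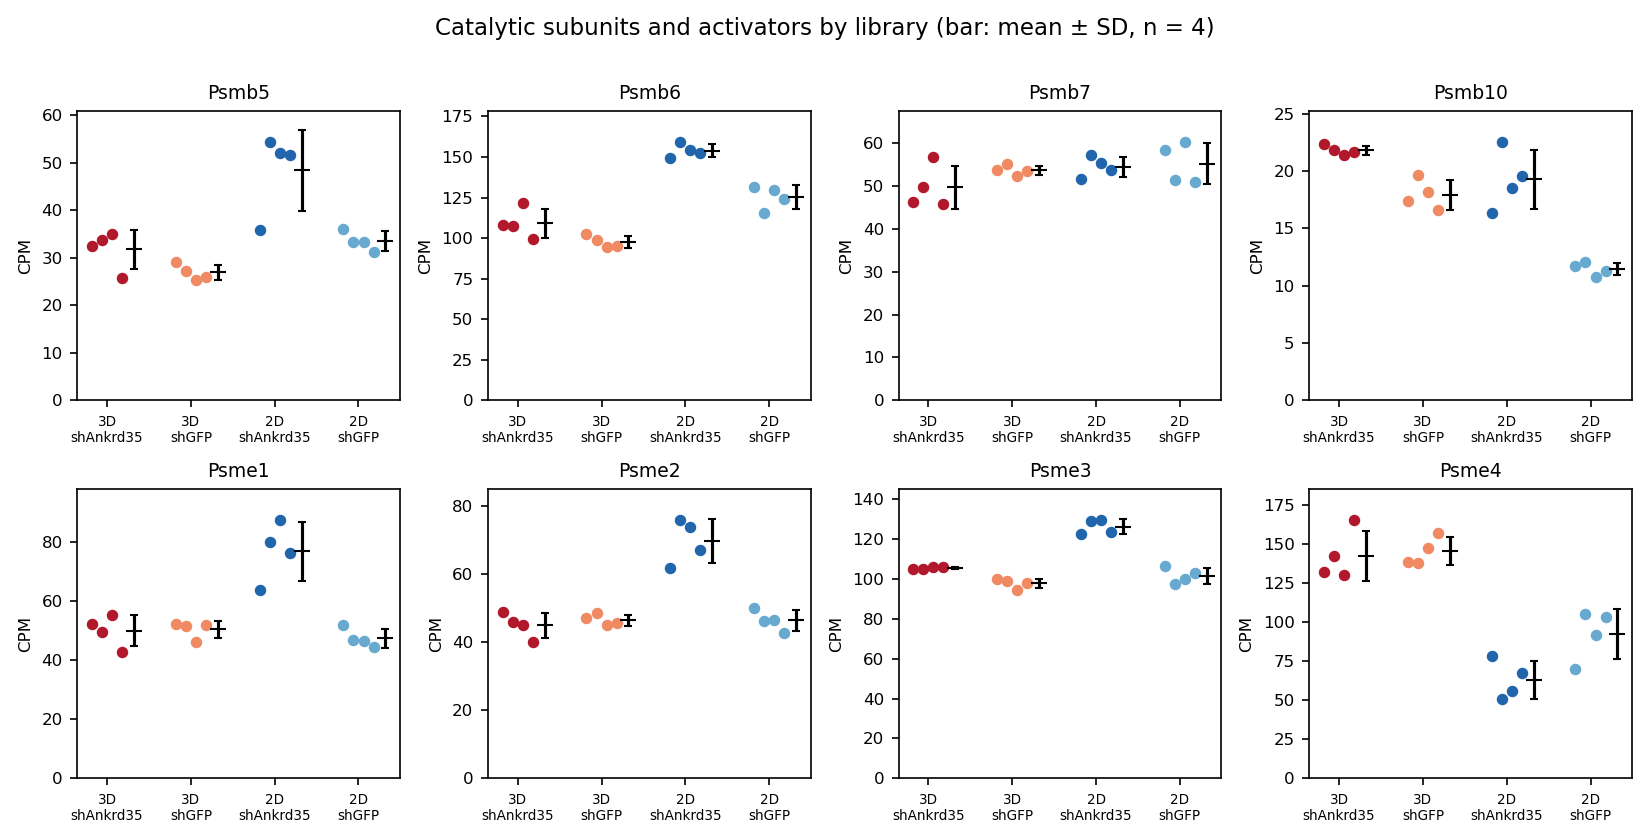
CPM of the catalytic subunits Psmb5, Psmb6, Psmb7 and Psmb10 and the activators Psme1 to Psme4 in each library, by group, with bars for the mean ± SD (n = 4). Psme1 and Psme2 are highest in 2D shAnkrd35, and Psme4 is highest in the 3D groups.

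The activators moved apart in 2D: Psme1, Psme2 and Psme3 rose and Psme4 fell. Psme1 and Psme2 encode the partners of the interferon-inducible cytosolic activator. Psme1 was measured at 52.4, 49.8, 55.4 and 42.8 CPM in 3D shAnkrd35, against 52.4, 51.6, 46.2 and 51.9 in 3D shGFP, and at 63.8, 80.2, 87.5 and 76.5 in 2D shAnkrd35, against 52.1, 46.8, 46.5 and 44.5 in 2D shGFP. All 4 libraries of 2D shAnkrd35 lay above the other 12. The difference in 2D was 0.69 ± 0.09 (adjusted p = 9.00e-06). Psme2 was measured at 48.9, 45.8, 44.8 and 40.1 CPM in 3D shAnkrd35, against 46.9, 48.4, 44.8 and 45.4 in 3D shGFP, and at 61.6, 75.7, 73.8 and 67.1 in 2D shAnkrd35, against 50.03, 46.1, 46.3 and 42.8 in 2D shGFP. Its 2D shAnkrd35 libraries likewise lay above all others, with a difference in 2D of 0.58 ± 0.07 (adjusted p = 3.77e-06). After trend removal both were still higher, by 0.44 and 0.32 on the log2 scale (adjusted p = 3.20e-06 for Psme1 and 1.23e-05 for Psme2). Their 16 log2 values correlated with Pearson's r of 0.97, and of 0.84 for deviations from the group means, in libraries that share depth and GC slope. On mm10, Psme1 (ENSMUSG00000022216.17) lies at chr14:55578123-55581529 and Psme2 (ENSMUSG00000079197.10) at chr14:55587441-55591113 on the opposite strand, 5911 bases away. Psme2b, a related copy of Psme2 outside the rule, was at 1.68 to 4.33 CPM, and reads that fit both cannot be told apart here.

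Psme3, which forms a nuclear activator of its own, was at 105, 105, 106 and 106 CPM in 3D shAnkrd35, against 100.1, 98.8, 94.7 and 98.01 in 3D shGFP, and at 122, 129, 129 and 123 in 2D shAnkrd35, against 106, 97.3, 99.8 and 103 in 2D shGFP. The hairpins did not overlap in either growth type, and the difference in 2D was 0.31 ± 0.04 (adjusted p = 4.42e-06). Psme4, the large monomeric activator of the nucleus (ENSMUSG00000040850.17, chr11:30771726-30880361), was measured at 132, 142, 131 and 165 CPM in 3D shAnkrd35, against 139, 138, 148 and 157 in 3D shGFP, and at 78.3, 50.6, 55.8 and 67.3 in 2D shAnkrd35, against 70.1, 105, 91.9 and 103 in 2D shGFP. In 2D the groups overlapped through the libraries numbered 1, the highest of shAnkrd35 and the lowest of shGFP. The difference was -0.56 ± 0.14 (adjusted p = 0.00328), -0.80 without both of those libraries and -0.32 after trend removal (adjusted p = 0.0035).

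In the regulatory particle, 11 of 20 genes rose in 2D and 1 fell. After trend removal 10 rose, 9 of them among the 11, and 2 fell that had not been called before. Without that removal, 4 of the 6 ATPases rose, among them Psmc3 by 0.29 ± 0.06 (adjusted p = 0.000334). The call for Psmc3 was lost after trend removal, at 0.06 (adjusted p = 0.277). Psmc6 (ENSMUSG00000021832.8, chr14:45329788-45349705) was the ATPase that fell. It was measured at 69.8, 76.0, 71.3 and 80.6 CPM in 3D shAnkrd35, against 75.0, 73.5, 80.7 and 82.0 in 3D shGFP, and at 41.7, 25.0, 30.8 and 36.7 in 2D shAnkrd35, against 31.5, 69.8, 49.8 and 60.2 in 2D shGFP. Replicate 1 of 2D shGFP lay within the range of 2D shAnkrd35, and the other 3 lay above it. The log2 difference of -0.62 ± 0.20 (adjusted p = 0.0151) was -0.96 without both 2D libraries numbered 1. It no longer passed in a fit on the 2D libraries alone (adjusted p = 0.065), without replicate 2 of 2D shAnkrd35 (-0.49, adjusted p = 0.0583) or after trend removal (-0.11, adjusted p = 0.249). The longest transcript of Psmc6 holds 37.0% GC, against 56.6% in that of Psmb5.

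Of the 14 Psmd genes, 7 rose in 2D and none fell, also at an unadjusted p under 0.05, with differences of -0.09 to 0.37 over the 14. After trend removal 7 rose, 6 of them called before, and Psmd7 fell (-0.14, adjusted p = 0.0085). Without that removal, the scaffold subunit Psmd2 did not pass (0.10 ± 0.04, adjusted p = 0.0684), and the chaperone Psmd9 rose by 0.23 ± 0.06 (adjusted p = 0.00547). Of the inhibitor and assembly genes, Psmg3 was the only one called. It was at 4.37, 6.04, 6.41 and 6.83 CPM in 2D shAnkrd35, against 3.94, 4.03, 3.62 and 3.39 CPM in 2D shGFP, with no overlap and a difference of 0.63 ± 0.15 (adjusted p = 0.00158). Its partners in alpha ring assembly gave 0.03 for Psmg1, 0.06 for Psmg2 and 0.14 for Psmg4, and the inhibitor Psmf1 gave -0.09. After trend removal Psmg1 and Psmg4 passed in the other direction, at -0.25 (adjusted p = 0.00498) and -0.29 (adjusted p = 0.0171).

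**Figure D3:**
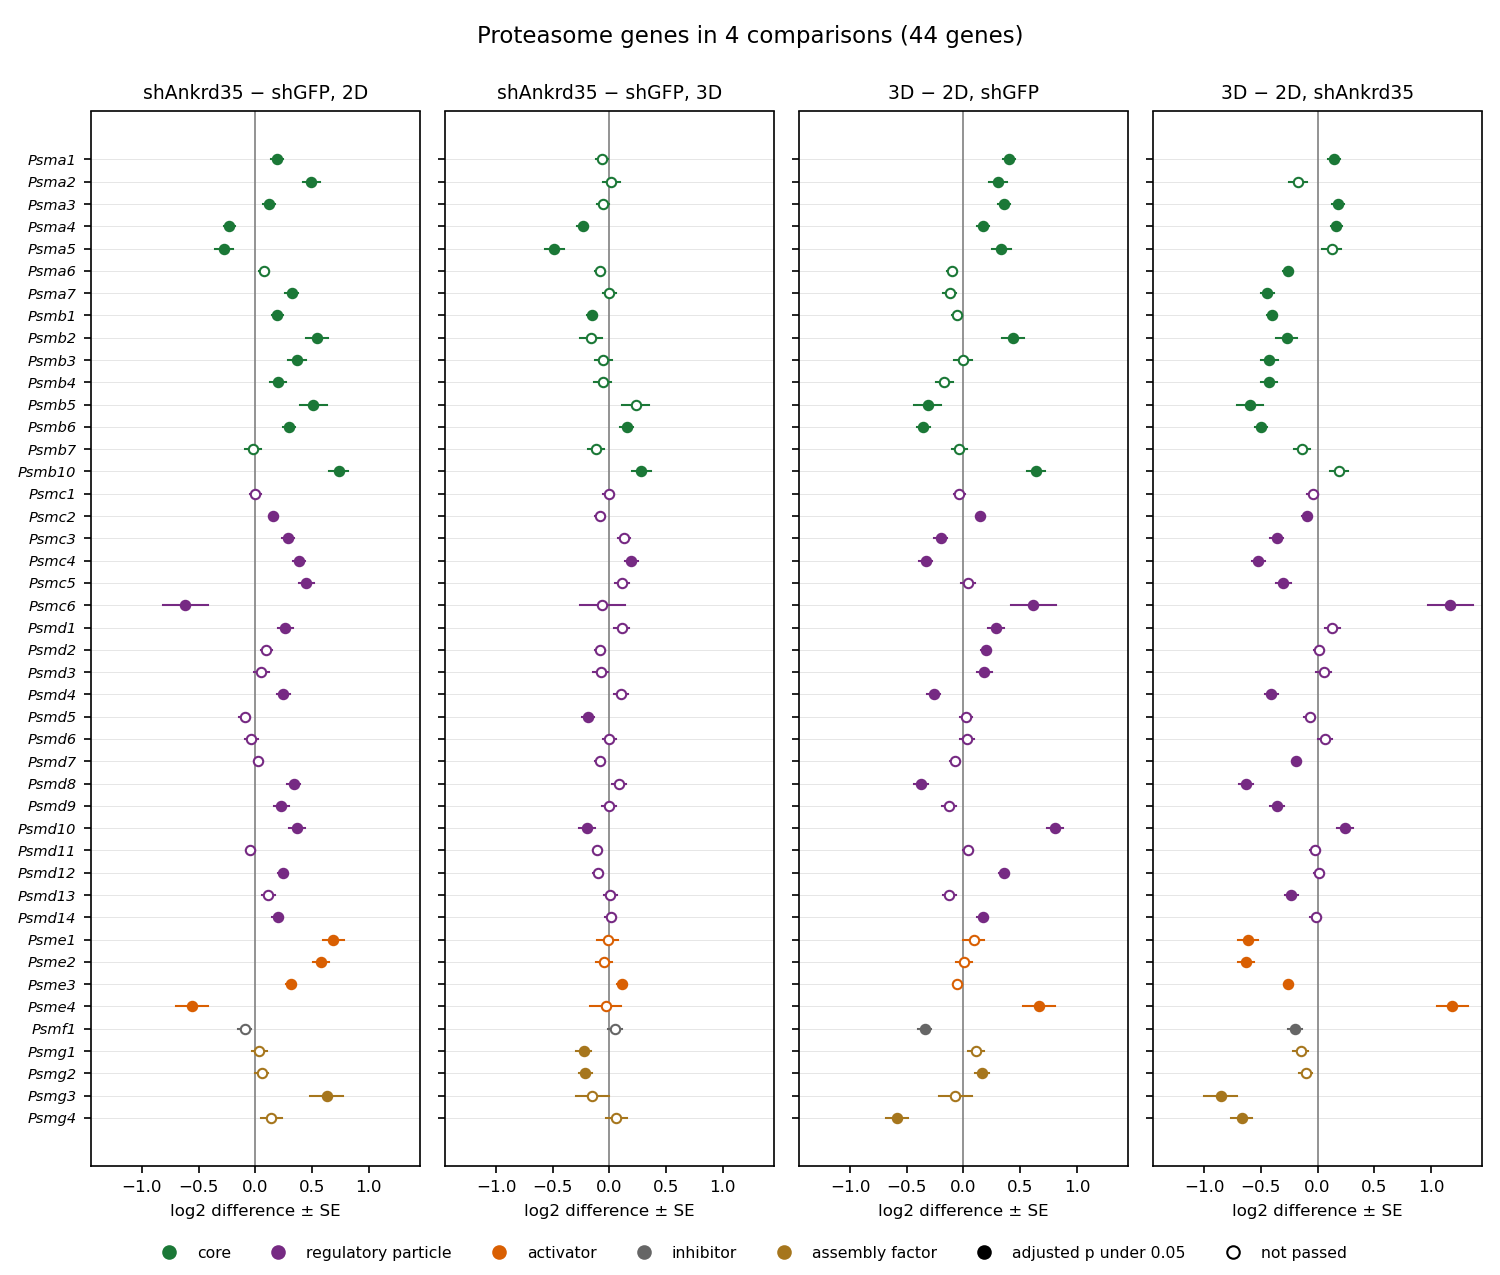
Log2 difference ± SE of each of the 44 genes in 4 comparisons, shAnkrd35 minus shGFP in 2D and in 3D, then 3D minus 2D with shGFP and with shAnkrd35, coloured by role, with filled points for an adjusted p under 0.05. In 2D, 26 genes lie to the right and 4 to the left among those filled; in 3D with shAnkrd35 against 2D, 6 lie to the right and 23 to the left.

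In 3D, proteasome genes moved in both directions between the hairpins, and the share that fell was near that of all genes. With shAnkrd35, 4 of 44 rose and 7 fell, against 15.0% and 14.6% of all genes tested, and the median log2 difference was -0.05, against -0.00 over all genes. In 4 genes the shAnkrd35 libraries lay wholly above those of shGFP and in 11 wholly below, against 18.8% and 19.4% of all genes. After trend removal 6 rose and 7 fell, and without both 2D libraries numbered 1, which enter through the shared spread, 5 rose and 9 fell. Psma5 fell most, at 67.6, 66.7, 62.3 and 62.3 CPM in 3D shAnkrd35, against 89.2, 91.9, 85.2 and 96.4 CPM in 3D shGFP, a difference of -0.49 ± 0.08 (adjusted p = 0.000227). Psma4 was at 81.4, 81.6, 80.3 and 80.7 CPM in 3D shAnkrd35, against 92.0, 93.0, 96.6 and 100.4 CPM in 3D shGFP, a difference of -0.24 ± 0.05 (adjusted p = 0.00161). Neither gene's groups overlapped. Psmg1 and Psmg2, which act as a pair in building the alpha ring, fell by 0.23 ± 0.07 (adjusted p = 0.0157) and 0.21 ± 0.06 (adjusted p = 0.0122). The Psmg1 call was lost without replicate 4 of 3D shAnkrd35 (adjusted p = 0.0554) or replicate 3 of 3D shGFP (adjusted p = 0.0617), or with quantile normalization (adjusted p = 0.059).

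The 4 genes that rose in 3D had all risen in 2D. They were Psmb10 (0.28 ± 0.08, adjusted p = 0.0147), the ATPase Psmc4 (0.19 ± 0.06, adjusted p = 0.0157), Psmb6 (0.15 ± 0.06, adjusted p = 0.0487) and Psme3 (0.11 ± 0.04, adjusted p = 0.0436). Psmc4 was at 115, 112, 117 and 108 CPM in 3D shAnkrd35, against 100.4, 101, 95.3 and 97.1 CPM in 3D shGFP, with no overlap. The 4 genes made up 100% of the rises in 3D and 15.4% of those in 2D. The falls of Psma4 and Psma5 in both growth types made up 28.6% of the falls in 3D and 50% of those in 2D. Psmb1 and Psmd10, named after their values were seen, fell in 3D and rose in 2D. After trend removal the fall of Psmd10 in 3D no longer passed (-0.10, adjusted p = 0.281). The Psmb10 call was lost without replicate 4 of 3D shGFP (0.25, adjusted p = 0.0533). That of Psmb6 was lost without any of replicates 1 to 3 of 3D shAnkrd35, 2 to 4 of 3D shGFP, 2 to 4 of 2D shAnkrd35 or 3 and 4 of 2D shGFP (adjusted p = 0.051 to 0.174). That of Psme3 was lost without any 3D library or without replicate 3 or 4 of 2D shGFP (adjusted p = 0.0517 to 0.13). Both were also lost with median-ratio normalization (adjusted p = 0.0622 for Psmb6 and 0.0734 for Psme3) and without variance trend and robust fitting (adjusted p = 0.0674 and 0.0539).

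The hairpin difference in 3D minus that in 2D was tested directly. It was negative and passed the threshold in 20 of 44 genes and positive in none, against 18.6% of all genes tested for negative and 17.1% for positive. The median of the 44 was -0.20, against 0.00 over all genes. With the unadjusted p of the same limma fit under 0.05, 1 gene was positive, voom weights gave 1 with an adjusted p under 0.05, and other settings gave 0 to 2. After trend removal 16 were negative, 13 of them among the 20, and 1 was positive. Without both 2D libraries numbered 1, 28 were negative. Psme2 had a log2 difference of -0.05 in 3D and 0.58 in 2D (difference -0.63 ± 0.10, adjusted p = 0.000213). Psmd12, a lid subunit, had -0.10 in 3D and 0.24 in 2D (difference -0.34 ± 0.06, adjusted p = 0.000394). Psmd10, known as gankyrin and a chaperone of the ATPase ring, had -0.20 in 3D and 0.37 in 2D (difference -0.56 ± 0.10, adjusted p = 0.000451). These 3 had the smallest p among the members. Psme1 had -0.02 in 3D and 0.69 in 2D (difference -0.71 ± 0.13, adjusted p = 0.000649), and Psmg3 had -0.15 in 3D and 0.63 in 2D (difference -0.78 ± 0.21, adjusted p = 0.00873). Psmb10, higher with shAnkrd35 in both growth types, had a difference of -0.45 ± 0.12 (adjusted p = 0.00729), which was -0.22 after trend removal (adjusted p = 0.105). Psme4 ran the other way, at 0.52 ± 0.20 (adjusted p = 0.05004), and passed after trend removal (0.33, adjusted p = 0.0385). Psmc6 was also positive, at 0.55 ± 0.28 (adjusted p = 0.134), but did not pass before or after trend removal (0.18 after, adjusted p = 0.234).

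**Figure D4:**
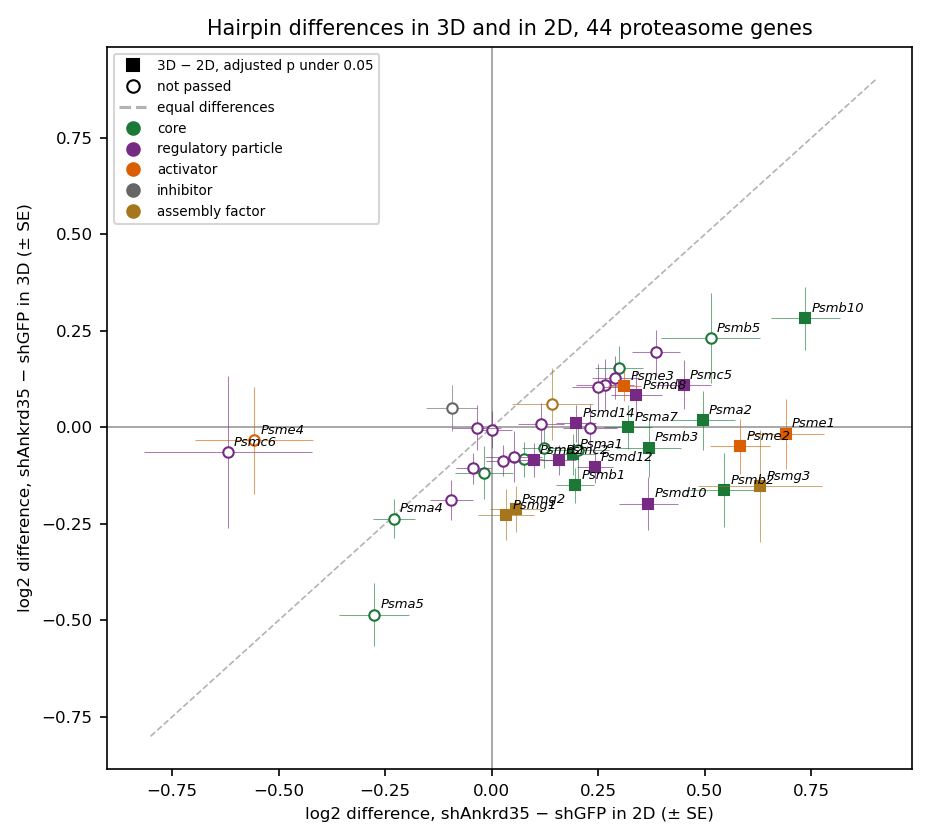
Log2 difference of shAnkrd35 against shGFP in 3D (vertical axis) and in 2D (horizontal axis) for the 44 genes, each with its SE, coloured by role, with filled squares where the 3D minus 2D difference had an adjusted p under 0.05. The 20 filled squares lie below the dashed line of equal differences, among them Psme1 and Psme2 near 0 on the vertical axis.

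With shGFP, 3D culture differed from 2D in both directions. In 3D shGFP, 17 of 44 genes rose and 8 fell relative to 2D shGFP, against 35.2% and 32.1% of all genes tested, and the median was 0.03, as over all genes. The libraries lay wholly apart upward in 16 and downward in 9, against 33.3% and 31.6% of all genes. After trend removal the split was 11 higher and 13 lower. The alpha ring gave 5 of the rises, Psma1 to Psma5. After trend removal those of Psma2 (-0.24, adjusted p = 0.103), Psma3 (-0.06, adjusted p = 0.388) and Psma4 (0.00, adjusted p = 0.994) no longer passed. Psmd10 rose most: it was at 37.2, 34.6, 35.8 and 35.9 CPM in 3D shGFP, against 19.1, 20.5, 21.1 and 21.5 CPM in 2D shGFP. The groups were far apart, with a log2 difference of 0.80 ± 0.07 (adjusted p = 2.43e-08). Psme4 rose by 0.67 ± 0.14 (adjusted p = 0.000616), Psmb10 by 0.64 ± 0.08 (adjusted p = 2.97e-06) and Psmc6 by 0.62 ± 0.20 (adjusted p = 0.0128). Psmc6 turned to -0.15 after trend removal (adjusted p = 0.114), and its call was lost in a fit on the shGFP libraries alone (adjusted p = 0.0562). Psmg4 fell most, at 13.6, 12.0, 11.2 and 10.8 CPM in 3D shGFP, against 19.2, 15.9, 19.1 and 17.4 CPM in 2D shGFP, a difference of -0.59 ± 0.09 (adjusted p = 3.67e-05). Its groups did not overlap.

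The regulatory subunit Psmd8 was lower in 3D shGFP, by a log2 difference of -0.38 ± 0.06 (adjusted p = 3.10e-05), as were Psmb6 (-0.36 ± 0.06, adjusted p = 3.24e-05) and the inhibitor Psmf1 (-0.34 ± 0.06, adjusted p = 7.95e-05). Psmb5 fell by 0.32 ± 0.12 (adjusted p = 0.0244), a call lost without replicate 1 of 2D shGFP or without replicate 3 or 4 of 3D shGFP (adjusted p = 0.0543 to 0.0626). Psmg2 rose by 0.16 ± 0.06 (adjusted p = 0.0232), a call lost without replicate 2, 3 or 4 of 2D shGFP or replicate 3 of 3D shGFP (adjusted p = 0.0507 to 0.072). It was also lost after trend removal (0.09, adjusted p = 0.149), with median-ratio normalization (adjusted p = 0.0539) and with quantile normalization (adjusted p = 0.445). Psme1, Psme2 and Psme3 gave 0.09, 0.00 and -0.05 and did not pass, and the levels of Psme1 and Psme2 overlapped between 3D shGFP and 2D shGFP. Psme1 passed after trend removal, at 0.21 (adjusted p = 0.0028).

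With shAnkrd35, most of the called proteasome genes were lower in 3D. In 3D shAnkrd35, 6 of 44 genes rose and 23 fell relative to 2D shAnkrd35, against 34.4% and 36.0% of all genes tested, with a median of -0.18, against -0.02 over all genes. The libraries lay wholly apart upward in 4 and downward in 21, against 29.9% and 29.3%. After trend removal 9 rose and 21 fell, of which 1 and 15 were among those called before. This comparison shares the 2D shAnkrd35 libraries with that of the hairpins in 2D, so their values are not separate evidence. In the beta ring 6 of 8 genes fell and none rose, with 1 higher at an unadjusted p under 0.05, and the median was -0.41. Psmb5 fell by 0.60 ± 0.12 (adjusted p = 0.000244) and Psmb6 by 0.50 ± 0.06 (adjusted p = 8.11e-07), while Psmb10 gave 0.19 ± 0.08 and did not pass (adjusted p = 0.0504). After trend removal Psmb10 was higher by 0.53 (adjusted p = 2.96e-06), and without that removal it passed under 5 other settings that kept every library (adjusted p = 0.0403 to 0.0488).

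Of the activators, Psme2 (-0.63 ± 0.07, adjusted p = 7.70e-07), Psme1 (-0.62 ± 0.09, adjusted p = 1.35e-05) and Psme3 (-0.26 ± 0.04, adjusted p = 1.53e-05) fell in 3D with shAnkrd35. The Psme3 call was lost after trend removal, at -0.03 (adjusted p = 0.5). Psme4 rose by 1.19 ± 0.14 (adjusted p = 2.51e-06), a fold of 2.28, and by 0.86 after trend removal (adjusted p = 8.53e-08). Per kilobase, Psme4 stood at 31.95% ± 4.0 of the median core gene in 3D shAnkrd35, 28.8% ± 0.96 in 3D shGFP, 15.3% ± 4.0 in 2D shAnkrd35, with 21.8% ± 3.8 in 2D shGFP (SD, n = 4 each). The core median leaves out Psmb10, and these shares were not corrected for the GC trend. The 3D groups lay above the 2D groups, which overlapped each other. Psmc6 rose by 1.17 ± 0.20 (adjusted p = 9.69e-05), but by 0.03 after trend removal (adjusted p = 0.749). Psmd10 and Psma3, which rose by 0.24 ± 0.07 (adjusted p = 0.00531) and 0.18 ± 0.05 (adjusted p = 0.00453), turned to -0.11 (adjusted p = 0.146) and -0.42 (adjusted p = 1.35e-05) after trend removal. The largest falls were those of Psmg3 (-0.86 ± 0.15, adjusted p = 6.06e-05), Psmg4 (-0.67 ± 0.09, adjusted p = 8.74e-06) and Psmd8 (-0.63 ± 0.06, adjusted p = 9.51e-08). Psmd8 was at 114, 113, 119 and 108 CPM in 3D shAnkrd35, against 104, 106, 107 and 111 in 3D shGFP, and at 174, 198, 168 and 164 in 2D shAnkrd35, against 149, 129, 143 and 135 in 2D shGFP. Every 3D library lay below every 2D library.

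The differences of the members went with the GC content of their transcripts. Across the 44 genes, Spearman's rho of the log2 difference with GC was 0.51 for the hairpins in 2D, 0.46 for the hairpins in 3D, -0.51 for growth type with shGFP and -0.63 for growth type with shAnkrd35. Over all genes with a GC value these were 0.40, 0.22, -0.34 and -0.48 in the same order. The points share the libraries, so these are descriptions. Among the core genes the median pairwise r of log2 values was 0.32 over 105 pairs (-0.82 to 0.93), and among the regulatory genes 0.05 over 190 pairs (-0.94 to 0.97). The non-members whose log2 levels followed the summed core most closely over the 16 libraries were Cdk4 (Pearson's r = 0.98), Ndufb4 (0.97), Npc2 (0.96), Atp6v1f (0.96) and Selenoh (0.96).

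**Figure D5:**
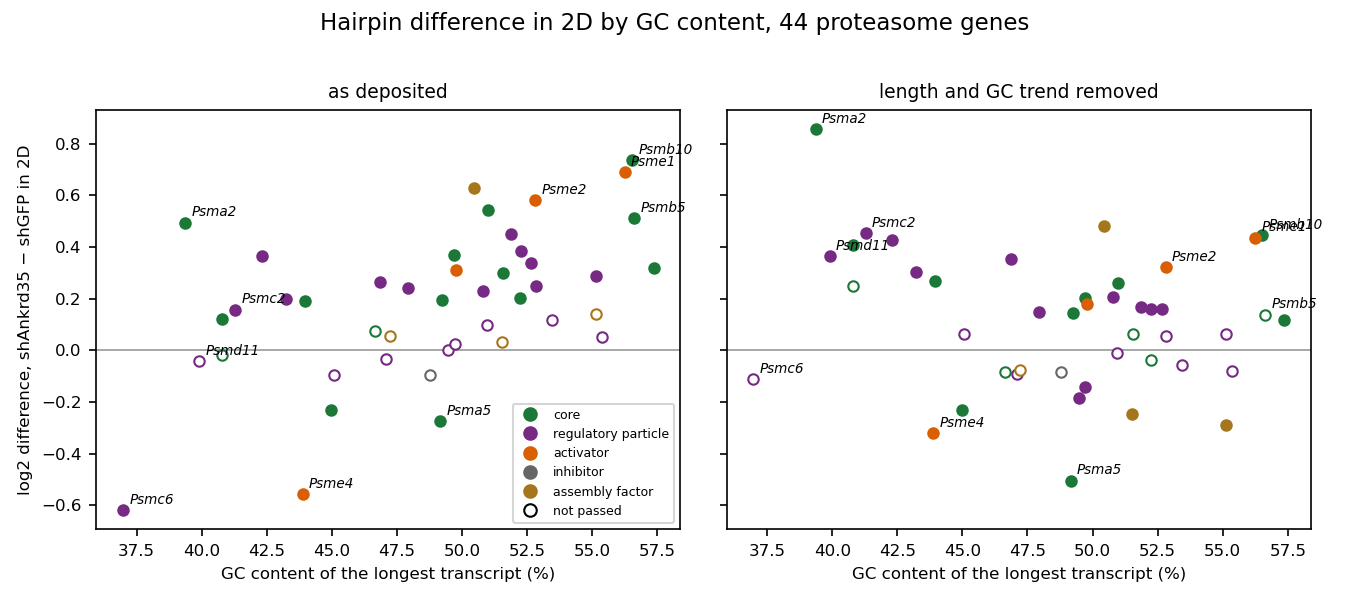
Log2 difference of shAnkrd35 against shGFP in 2D for the 44 genes against the GC content of the longest transcript, as deposited (left) and after removal of each library's length and GC trend (right), with filled points for an adjusted p under 0.05. Psmc6, at 37.0% GC, is at -0.62 on the left and -0.11 on the right, and Psmb10, Psme1 and Psme2 are above 0 in both.

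Nfe2l1, which encodes NRF1, the transcription factor known to induce proteasome subunit genes when proteasome activity falls, was lower with shAnkrd35 in 2D, the comparison in which 26 proteasome genes rose. It averaged 302 ± 7.1 CPM in 3D shAnkrd35, 309 ± 4.8 in 3D shGFP, 422 ± 23 in 2D shAnkrd35, with 714 ± 26 in 2D shGFP (SD, n = 4 each). No 2D shAnkrd35 library (403 to 453 CPM) reached the range of 2D shGFP (687 to 747 CPM). Its log2 difference between the hairpins was -0.76 ± 0.04 in 2D (adjusted p = 4.64e-10) and -0.03 ± 0.04 in 3D (adjusted p = 0.611), and that between 3D and 2D was -1.21 ± 0.04 with shGFP and -0.48 ± 0.04 with shAnkrd35. The hairpin difference in 3D minus that in 2D was 0.73 ± 0.06 (adjusted p = 3.82e-07), opposite in sign to those of the 20 proteasome genes. These are RNA levels, which do not measure the activity of NRF1, and its part in the proteasome differences was not tested. For the lists that follow, the shares of all genes called higher and lower were 29.0% and 28.8% for the hairpins in 2D, 15.0% and 14.6% in 3D, 35.2% and 32.1% for 3D against 2D with shGFP, and 34.4% and 36.0% with shAnkrd35. Of the 16 genes listed for control of proteasome genes, 4 rose and 8 fell with shAnkrd35 in 2D. Sel1l, an adaptor of the endoplasmic reticulum ubiquitin ligase, fell by 0.80 ± 0.07 and Nfya, a subunit of NF-Y, by 0.48 ± 0.04. In 3D none of the 16 rose with shAnkrd35 and 6 fell. In 3D against 2D, 6 rose and 8 fell with shGFP, and 3 rose and 5 fell with shAnkrd35.

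Of 12 measured factors that bind or assemble the particle, 3 rose and 4 fell with shAnkrd35 in 2D, and none rose and 1 fell in 3D. Zfand5, which binds the particle and stimulates it, fell by 0.52 ± 0.08 in 2D and by 0.26 ± 0.08 in 3D, and Usp14, a deubiquitinase of the particle, rose by 0.25 ± 0.06 in 2D. Trend removal brought Zfand5 in 2D to -0.02. Between 3D and 2D, 5 rose and 3 fell with shGFP, and 5 rose and 2 fell with shAnkrd35. After trend removal, with shAnkrd35, Uchl5, Zfand5 and Fbxo7 no longer rose, Akirin2 no longer fell and AI314180 had no GC value. Pomp still rose and Ubfd1 still fell, Adrm1 also rose, and Sem1, Usp14 (-0.91) and Txnl1 (-0.80) also fell. With shGFP, Uchl5 (-0.27) and Txnl1 (-0.36) fell in place of rising, Adrm1 also rose, and Usp14, Ube3c and Ubfd1 no longer passed. Pomp, the chaperone of core assembly, rose in 3D by 0.70 ± 0.08 with shGFP (adjusted p = 5.63e-07) and by 0.34 ± 0.08 with shAnkrd35. Of 13 shuttles and extraction factors, 2 rose and 10 fell in 3D with shGFP, among them Ubqln4, a ubiquitin receptor, at -0.43 ± 0.04. With shAnkrd35 in place of shGFP 2 rose and 8 fell. Between the hairpins, 2 of the 13 rose and 2 fell in 2D, and 1 rose and 2 fell in 3D.

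All 6 ubiquitin and ubiquitin-activating genes were called between the hairpins in 2D, 4 higher and 2 lower. In 3D, 2 rose and 1 fell with shAnkrd35. In 3D against 2D, 1 rose and 2 fell with shGFP, and 1 rose and 3 fell with shAnkrd35. Of 18 measured genes of class I antigen processing and interferon control, 5 rose and 3 fell with shAnkrd35 in 2D. The 3 with the smallest p were the interferon pathway factors Irf9 (0.63 ± 0.07), Stat2 (0.60 ± 0.07) and Irf1 (0.76 ± 0.11). Irf9 averaged 9.64 ± 0.82 CPM in 3D shAnkrd35, 8.79 ± 0.44 in 3D shGFP, 13.0 ± 0.54 in 2D shAnkrd35, with 8.38 ± 0.33 in 2D shGFP (SD, n = 4 each), so that, as for Psme1 and Psme2, the 2D shAnkrd35 libraries were the 4 highest. Psmb10 did not share this pattern, being highest on average in 3D shAnkrd35, and a common cause was not tested. In 3D, 1 of the 18 rose with shAnkrd35 and 6 fell. With shAnkrd35, 4 rose and 10 fell in 3D against 2D, and with shGFP 5 rose and 6 fell.

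Exons of Psmc3, Psmd13, Psmb7 and Psme1 overlap a measured gene on the opposite strand, Slc39a13, Sirt3, Nek6 and Emc9, by 215, 342, 405 and 14 bases in this order. The use of strand in counting is not given in the sources used here, so reads in these stretches cannot be told apart.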

How the data were processed

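RNA of LKR10 cells was sequenced in 16 libraries, 4 in each of 4 groups. The tools named in the submitters' processing notes are STAR 2.5.1b, Trimmomatic 0.38 and edgeR, and the genome is mm10. Not given in the sources used here are the counting program and its strand setting, the annotation, and how low genes were filtered. The deposited values are log2 CPM with a prior count that averages 2 reads, as the values themselves show: 100% became whole reads within 0.01 reads once the prior was removed. These reads gave the CPM printed in the text and the library totals of 13.82 to 28.72 M.

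The 44 genes and the lists of related genes were chosen with earlier results of these data known. A model of the 4 group means over all 16 libraries was fitted to the log2 values with limma 3.58.1 in R 4.3.3 (variance trend, robust, statmod 1.5.0), on genes with at least 1 CPM in at least 4 libraries. Adjusted p-values are Benjamini-Hochberg values over the 12320 genes of each of 5 contrasts. Rose, fell, higher and lower are used of an adjusted p under 0.05. Because the prior is part of each value, changes of low genes are understated. The steps were tested on simulated data. Symbols were matched to GENCODE M21 (12218 of 12321) for coordinates, exonic length and GC content, and to RefSeq promoters on GRCm38.p6. Named genes are the 4 highest and 4 lowest members past the threshold in each hairpin and growth comparison, the 3 with the smallest p each way in the difference of hairpin effects, the catalytic subunits, activators, inhibitor and assembly factors, the extremes per kilobase, and up to 3 genes a list by p. Alternatives covered normalization, filter, prior count, fit (also on only the groups compared), GC and length trend, replicate number and left-out libraries. Replicate numbers did not consistently pair the libraries: same-numbered libraries of different groups correlated at -0.48 to 0.21 in their deviations from group means. For each library of 2D shGFP, however, the same-numbered library was the closest of 3D shAnkrd35, at 0.12 to 0.19. In no other pair of groups did this hold for every replicate.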

Additional observations from a re-analysis of the deposited data

Results flagged for a closer look

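The named members and the summed levels of the core and of the regulatory particle were tested for libraries standing apart. In 5 of 104 groups of 4 libraries, 1 library lay far from the other 3, and about 5 of 104 would do so by chance. Psmb5 was at 35.8 CPM in replicate 1 of 2D shAnkrd35, with the others at 51.7 to 54.3. Psmg2 was at 18.2 CPM in the same library, with the others at 20.3 to 20.7. Psme1 was at 46.2 CPM in replicate 3 of 3D shGFP, with the others at 51.6 to 52.4. Psmc4 was at 138 CPM in replicate 1 of 2D shGFP, with the others at 118 to 121. Psma4 was at 88.1 CPM in replicate 2 of 2D shGFP, with the others at 83.2 to 84.0.

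The hairpin difference in 3D minus that in 2D passed the threshold of the limma fit in these named members, all negative: Psmg3 (-0.78 on the log2 scale), Psme1 (-0.71), Psme2 (-0.63), Psmd10 (-0.56), Psmb10 (-0.45), Psmd12 (-0.34), Psmg2 (-0.27), Psmg1 (-0.26), Psme3 (-0.20) and Psmd2 (-0.18). After removal of the length and GC trend, Psmb10 (-0.22, adjusted p = 0.105), Psmg2 (-0.07, adjusted p = 0.485), Psmg1 (0.01, adjusted p = 0.939), Psme3 (-0.05, adjusted p = 0.498) and Psmd2 (-0.07, adjusted p = 0.342) no longer passed. The calls of Psmd2 and Psmg1 each fell just short of the threshold when any of several single libraries was left out (adjusted p = 0.0515 to 0.085). Without replicate 2 or 3 of 2D shAnkrd35, replicate 2 or 4 of 2D shGFP, replicate 1, 2 or 3 of 3D shAnkrd35, or replicate 3 or 4 of 3D shGFP, Psmd2 no longer passed. Without replicate 2 or 4 of 2D shAnkrd35 or 2D shGFP, replicate 1 or 4 of 3D shAnkrd35, or replicate 3 or 4 of 3D shGFP, Psmg1 no longer passed.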

How the results depend on the processing

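Of 2692 values of named genes under the alternatives, 2521 kept their side of the threshold, 94 lost and 64 gained the call. Another 13 changed sign, with a call before or after. Values that changed sign but were called neither before nor after count among the 2521. An example is Psmg2 between the hairpins in 2D (0.06, and -0.08 after trend removal). With the length and GC trend removed, with or without the replicate block, the number of members lower with shAnkrd35 in 2D was 7 and that higher in 3D with shGFP 11; the number lower in 3D with shGFP was 13 without the block. The 13 changes of sign with a call came only under this removal. With shAnkrd35 in 2D Psmg1 was -0.246 and Psmg4 -0.289, and in 3D with shGFP Psmc6 was -0.147. In 3D with shAnkrd35 Psma3 was -0.418, Psmd10 -0.108 and Psmg1 0.166 (the last without the block only). The difference of hairpin effects of Psmg1 was 0.012. The fit with the replicate block, although replicate numbers did not consistently pair the libraries, gave 26 higher and 4 lower members for the hairpins in 2D. It gave 2 and 6 in 3D, 17 and 8 for growth type with shGFP, 7 and 23 with shAnkrd35, and 0 and 20 for the difference of effects. With median-ratio normalization, or without variance trend and robust fitting, 2 members were also higher with shAnkrd35 in 3D. One member had a positive difference of effects, in place of 0, with the trend removed (with or without the block), a mean of at least 5 CPM, median-ratio normalization, a prior count of 0.5, quantile normalization or voom weights, and 2 had one without both 2D libraries numbered 1. Leaving out each library gave 24 to 27 higher and 3 to 5 lower for the hairpins in 2D, 1 to 5 and 5 to 9 in 3D, 15 to 17 and 7 to 12 for growth type with shGFP, 5 to 7 and 21 to 26 with shAnkrd35, and 0 to 2 and 16 to 27 for the difference of effects. Median-ratio normalization and voom were chosen after seeing the data and took the place of 2 planned count tests (quasi-likelihood and Wald), which were not run because the deposited unit is log2. At 48 to 139 reads per library, Psmg3 is the member that depth limits most.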
